A study of Mus musculus with 8 samples.

Results

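Atoh8, Msx1, Msx2, Snai1, Snai2 and Junb encode transcription factors that BMP and TGF-beta ligands are known to induce. These 6 genes were examined, of 21887 protein-coding genes in the RefSeq annotation of mm10, for SMAD4 binding in MS1 cells, an established mouse endothelial line. All peaks with a summit inside a gene body or within 100 kb of it were collected, and each was marked by whether the gene was also its nearest protein-coding gene. This gave 18 of the 4324 peaks from stimulated cells and 9 of the 1130 peaks from unstimulated cells outside mitochondrial DNA.

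The stimulated cells received recombinant BMP9/10 at 1 ng/mL and the unstimulated cells fresh medium, both after 24 h without serum, having been grown in DMEM with 10% FBS. SMAD4-bound DNA was immunoprecipitated (IP) and sequenced beside input DNA, with 2 IP and 2 input libraries per condition, 8 samples in all. Both stimulated IP libraries have KD in their titles, an abbreviation left unexplained, and "stimulated" below means the libraries so labelled. The authors merged the 2 libraries of each kind before they called peaks, leaving 41044888 stimulated and 52971023 unstimulated IP tags. No value therefore has a replicate error, and no p-value is given. Every interval of a pileup or a pileup ratio below is a 95% interval that covers counting error within pooled libraries only. MS1 is a single line, and a SMAD4 peak is not a measure of expression, so its endothelial identity could not be checked from RNA. Of 10 endothelial marker genes (Cdh5, Pecam1, Emcn, Egfl7, Tal1, Sox17, Sox18, Erg, Kdr and Tek), 10 were nearest to a stimulated and 6 to an unstimulated peak within 100 kb, against 12.2% and 3.79% of all protein-coding genes. Gene lists were chosen with earlier results of these data known, so these counts are a description and no check of identity.

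BMP9 and BMP10 bind the endothelial receptor ALK1, which phosphorylates SMAD1 and SMAD5. TGF-beta acts mainly through SMAD2 and SMAD3. Both kinds of receptor-activated SMAD enter the nucleus with SMAD4 and bind DNA at the SMAD box GTCT and at GC-rich sites, usually together with other factors. ATOH8 is a basic helix-loop-helix factor and a known BMP9 and ALK1 target in endothelium. MSX1 and MSX2 are homeodomain repressors induced by BMP in limb, tooth and neural crest. SNAI1 (Snail) and SNAI2 (Slug) are zinc finger repressors that bind the E-box CACCTG and take part in epithelial and endothelial to mesenchymal transition. JUNB is a subunit of the AP-1 factor and an immediate early gene that responds to TGF-beta, BMP and many other stimuli.

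Promoter sequences are shown for Junb, the single gene of the set with a peak over its promoter, and for Snai1 and Msx2 as promoters that hold the SMAD box without a peak over them. Each is the 250 bases before the annotated transcription start, 5′ to 3′ on the strand of the gene, from RefSeq (GRCm38.p6, the assembly of mm10), in which 5 of the 6 genes matched. In Junb (chr8:84978749-84978998, minus strand) the capitals mark the 105 bases beneath the stimulated peak. In Snai1 (chr2:167537945-167538194, plus strand) and Msx2 (chr13:53472781-53473030, minus strand) they mark matches to the letters GTCT or CACCTG on either strand.
Junb: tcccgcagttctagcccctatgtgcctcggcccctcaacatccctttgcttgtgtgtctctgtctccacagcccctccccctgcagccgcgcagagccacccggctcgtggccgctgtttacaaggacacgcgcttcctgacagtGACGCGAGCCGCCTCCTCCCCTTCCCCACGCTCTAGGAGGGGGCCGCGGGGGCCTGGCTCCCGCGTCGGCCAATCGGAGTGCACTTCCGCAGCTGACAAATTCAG
Snai1: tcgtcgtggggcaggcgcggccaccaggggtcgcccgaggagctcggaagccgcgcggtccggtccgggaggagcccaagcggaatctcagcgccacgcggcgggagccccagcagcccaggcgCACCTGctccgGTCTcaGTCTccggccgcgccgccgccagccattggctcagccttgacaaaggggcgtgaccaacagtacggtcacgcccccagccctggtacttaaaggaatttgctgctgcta
Msx2: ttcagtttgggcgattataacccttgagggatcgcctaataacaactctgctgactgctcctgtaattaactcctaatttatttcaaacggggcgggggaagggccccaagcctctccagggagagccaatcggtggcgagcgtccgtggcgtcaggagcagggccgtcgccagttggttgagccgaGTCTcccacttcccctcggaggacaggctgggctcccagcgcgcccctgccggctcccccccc

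The Junb promoter held the SMAD box at 195 and 189 bases before the start, upstream of the bases beneath its peak. Snai1 held the SMAD box at 115 and 109 bases and the E-box at 126 bases before the start, and Msx2 held the SMAD box at 63 bases. Msx1 held the E-box at 210 bases, and the Atoh8 promoter held none of the letters searched. The search ran on both strands and covered the SMAD box GTCT, the E-box and the SMAD palindrome GTCTAGAC, in which the SMAD box is contained. GC-rich sites were represented by GGCGCC. The letters searched for the site of AP-1 factors were TGACTCA. Among all 32817 promoter windows, 82.9% held the SMAD box and 17.2% the E-box. The palindrome stood in 0.168% of windows, the GC-rich letters in 9.59% and the AP-1 letters in 4.46%, and these 3 had no match in any of the 5 promoters. A match describes the letters of the window and is not a bound site.

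SMAD4 peaks lay beside Atoh8, Msx1, Snai1 and Junb in both conditions, and none lay within 100 kb of Msx2 or Snai2 in either. Within 100 kb, Atoh8 had 6 stimulated and 3 unstimulated peaks, Snai1 had 5 and 3, Junb had 5 and 2, and Msx1 had 2 and 1. Among all protein-coding genes, 36.5% had a stimulated peak within 100 kb and 13.1% an unstimulated one. The same 4 of 6 genes were the nearest gene to a peak in each list, where 12.2% of all genes were nearest to a stimulated peak, 3.79% to an unstimulated peak and 3.71% to both. Atoh8 was nearest to 5 stimulated and 3 unstimulated peaks, Snai1 to 4 and 3, Junb to 3 and 1, and Msx1 to 2 and 1. The median over all genes was 0 in both lists, and 2.5 stimulated and 1 unstimulated over the 6 genes. At least as many nearest stimulated peaks as Atoh8 were held by 0.265% of genes, as Snai1 by 0.544%, as Junb by 1.34% and as Msx1 by 3.46%. The pair of counts seen at Atoh8 was shared by 6 other genes, that of Snai1 by 7, that of Junb by 68 and that of Msx1 by 159.

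The stimulated list is 3.83 times as long as the unstimulated one, and around the 6 genes the count was 2 times as large. Why the lists differ in length was not tested. When the stimulated list was shortened to the 1130 peaks of highest −log10 q, 9 peaks remained around the 6 genes, the number of the unstimulated list. Atoh8 then had 4, Junb 3, Snai1 2 and Msx1 0 stimulated peaks. The window of 100 kb split no close group of peaks: the farthest summit inside it lay 51.9 kb from its gene (Msx1), and the closest outside lay 117 kb from Snai1, inside Slc9a8, with fold enrichments of 6.06 in stimulated and 4.12 in unstimulated cells.

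**Figure D1:**
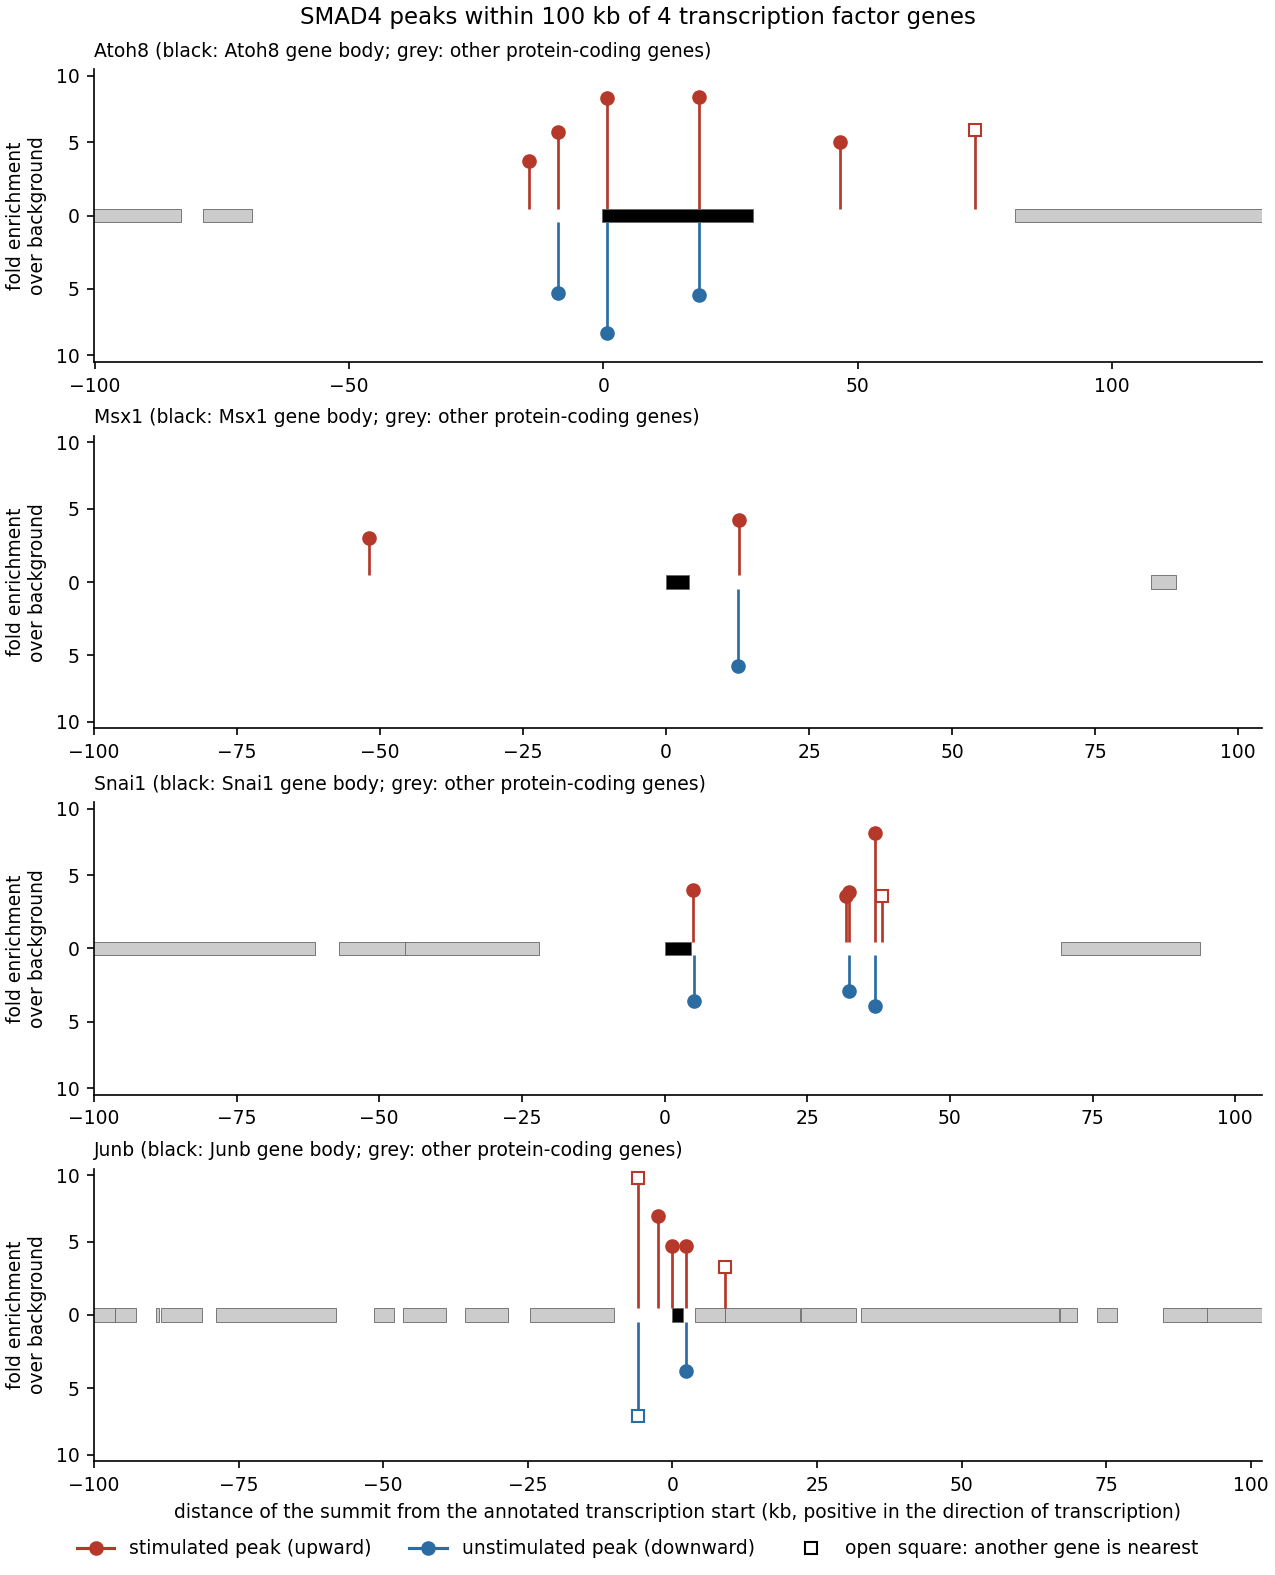
Positions of SMAD4 peaks around Atoh8, Msx1, Snai1 and Junb. The horizontal axis is the distance of the summit from the annotated transcription start in kb, the vertical axis the authors' fold enrichment over background, read from the edge of the gene bar, with stimulated peaks upward and unstimulated peaks downward. Filled circles are peaks nearest to the named gene and open squares peaks nearest to another gene (4 stimulated, 1 unstimulated). All 9 unstimulated peaks stand opposite a stimulated one, and the Junb peaks lie within 10 kb of the gene.

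Atoh8 carried the most sites. The gene body covers 29.6 kb on the minus strand (chr6:72206174-72235780), and 3 other protein-coding genes reach into its window. The tallest stimulated peak by fold enrichment lay inside the gene body, 18.7 kb after the transcription start (chr6:72216611-72216952). Its pileup was 58 tags and its fold enrichment 8.43. The matching unstimulated peak (chr6:72216754-72216941) had a pileup of 37 and a fold enrichment of 5.43.

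Pileup is the number of IP tags over the summit and was scaled here to 1000000 IP tags of its list, called normalised pileup below. Fold enrichment divides the pileup by the local background, after adding 1 to each, and is the authors' value. The intragenic Atoh8 site had a normalised pileup of 1.41 in stimulated and 0.698 in unstimulated cells, a ratio of 2.02 with a counting interval of 1.32 to 3.14. This ratio stood at percentile 96.5 of the 1078 shared pairs of the whole list.

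A second intragenic Atoh8 site lay 0.628 kb after the transcription start (chr6:72234650-72235203 in the stimulated list, chr6:72234829-72235162 in the unstimulated list). It had a pileup of 49 in stimulated and 44 in unstimulated cells, and the fold enrichment was 8.33 in both lists. This was the unstimulated peak of highest fold enrichment in the set, at rank 19 of 1130, while the stimulated one stood at rank 196 of 4324. The normalised pileup was 1.19 against 0.831, a ratio of 1.44 whose interval (0.937 to 2.21) included 1. The equal fold enrichment stood beside a local background per tag that was 1.47 times as high in stimulated as in unstimulated cells. The stimulated peak ended 375 bases from the 250-base promoter window.

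Upstream of Atoh8, a shared peak lay 8.71 kb from the gene body with its summit at the same base in both lists (chr6:72244204-72244595 stimulated, chr6:72244320-72244547 unstimulated). It had pileups of 38 in stimulated and 36 in unstimulated cells, fold enrichments of 5.82 and 5.29, and a ratio of normalised pileup of 1.36 (0.841 to 2.21). Farther upstream, a stimulated peak with no unstimulated overlap lay 14.4 kb from the gene body (chr6:72250128-72250256), with a pileup of 17 and a fold enrichment of 3.60. Another lay 17.1 kb beyond the 3′ end (chr6:72189028-72189167), with 24 and 5.0. The sixth peak of the window, 43.7 kb from the 3′ end (chr6:72162313-72162569), had 37 and 5.94 and was nearest to St3gal5, which encodes a ganglioside synthase, at 7.91 kb. It also had no unstimulated counterpart.

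Msx1 had peaks in its window and Msx2 had none. Msx1 (chr5:37820491-37824585, minus strand) had its shared site 8.67 kb beyond the 3′ end, with Cytl1 as the other protein-coding gene in the window. The stimulated peak (chr5:37811778-37811992) had a pileup of 20 and a fold enrichment of 4.2. The unstimulated peak (chr5:37811944-37812043) had 27 and 5.83.

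These intervals overlapped by 49 bp, and their summits lay 186 bp apart, against a median of 31 bp over all shared pairs, where 16 pairs had a gap of this size or more. The normalised pileup was 0.487 in stimulated and 0.51 in unstimulated cells, a ratio of 0.956 (0.508 to 1.77). By point value Msx1 was the exception to the direction of the set, since all the other 8 shared sites had a ratio above 1, as did 98.4% of all shared pairs. The interval of the Msx1 ratio also held the median of all pairs, 1.47. Had sharing required summits within 100 bp, the Msx1 peaks would not have been paired. Stimulated peaks without a counterpart around the 6 genes then numbered 10 in place of 9. Whether the Msx1 peaks are 1 site or a pair of neighbouring sites was not tested. A stimulated peak 51.9 kb upstream (chr5:37876415-37876517) had a pileup of 30 and the lowest fold enrichment among the 18 stimulated peaks, 2.82, with no unstimulated overlap.

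Msx2 (chr13:53466881-53472780) had its closest stimulated peak 187 kb from the gene body (chr13:53659940-53660151, fold enrichment 5.68). No protein-coding gene was nearer to that peak than Msx2. The closest unstimulated peak lay 1815 kb away.

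Snai1 had peaks in its window and Snai2 had none. Snai1 (chr2:167538195-167542814, plus strand) had peaks on the 3′ side alone, and the closest stimulated peak to its promoter window was 4918 bases away. A shared site lay just past the 3′ end of the gene, with a stimulated summit 0.45 kb from it (chr2:167543112-167543636) and an unstimulated summit 0.538 kb from it (chr2:167543158-167543553). It had a pileup of 50 and a fold enrichment of 3.92 in stimulated cells, against 40 and 3.42 in unstimulated cells. The ratio of normalised pileup was 1.61 (1.04 to 2.51).

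The remaining Snai1 peaks formed a group of 4 stimulated summits spread over 6.27 kb, between 27.3 and 33.5 kb from the gene. Its tallest peak (chr2:167574841-167575133) had a pileup of 65 and a fold enrichment of 8.15 in stimulated cells. The unstimulated counterpart (chr2:167574912-167575183) had 45 and 3.83. The ratio of normalised pileup was 1.86 (1.26 to 2.79), and the local background per tag was 0.833 times the unstimulated one, so fold enrichment differed more than pileup. This fold enrichment ranked 222 of 4324 in the stimulated list, and the unstimulated value 625 of 1130.

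Assignment to Snai1 was close at that site: its stimulated summit lay 32.2 kb from Snai1 and 32.6 kb from Ube2v1, a ubiquitin-conjugating enzyme variant gene, a difference of 331 bp. The next peak, 33.5 kb from Snai1 (chr2:167576257-167576426, pileup 37, fold enrichment 3.45), was nearest to Ube2v1 and had no unstimulated counterpart. A narrow shared peak 27.7 kb from the gene (chr2:167570413-167570570 stimulated, chr2:167570407-167570515 unstimulated) had pileups of 55 and 47 and fold enrichments of 3.73 and 2.67. Its ratio was 1.51 (1.0 to 2.28), with the lower limit barely above 1. The stimulated peak with its summit 433 bp away (chr2:167570009-167570138), with a pileup of 32 and a fold enrichment of 3.47, was not called in unstimulated cells.

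Snai2 (chr16:14705852-14709395) lay in a sparse region with 1 other protein-coding gene in its window. The closest stimulated peak was 547 kb away, inside Marf1, with a fold enrichment of 4.33. In the unstimulated list the closest was 2161 kb away.

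At Junb (chr8:84976909-84978748, minus strand) all peaks were within 10 kb, in a window with 17 other protein-coding genes. A stimulated peak sat on the promoter (chr8:84978669-84978853), with its summit 16 bp before the transcription start, a pileup of 32 and a fold enrichment of 4.71. It was the only stimulated summit inside a window from 250 bases before to 50 bases after the start of a gene of the set. Of all 32817 promoter windows, 2.23% were overlapped by a stimulated and 0.427% by an unstimulated peak. Those shares count any overlap of a peak, a looser measure than a summit inside the window. A second stimulated peak lay 2.43 kb upstream (chr8:84981061-84981406), with 39 and 6.90. Neither overlapped an unstimulated peak.

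Sites bound in both conditions flanked Junb on either side. Just past its 3′ end, as at Snai1, a shared peak had its summit 0.505 kb from the gene in the stimulated list (chr8:84976107-84976642) and 0.543 kb from it in the unstimulated list (chr8:84976193-84976694). It had a pileup of 46 and a fold enrichment of 4.70 in stimulated cells, against 33 and 3.74 in unstimulated cells. The ratio of normalised pileup was 1.80 (1.13 to 2.90). The tallest peak of the whole set by fold enrichment lay 5.99 kb upstream of Junb (chr8:84984571-84984838 stimulated, chr8:84984587-84984782 unstimulated), at rank 97 of 4324 in the stimulated and 55 of 1130 in the unstimulated list. It had 46 tags and 9.79 in stimulated cells and 43 and 7.10 in unstimulated cells, a ratio of 1.38 (0.891 to 2.14). Its nearest gene was Hook2, which encodes a microtubule linker protein, at 4.03 kb by gene body. By annotated transcription starts the assignment was close: the stimulated summit lay 5.88 kb from that of Hook2 and 5.99 kb from that of Junb. The last peak of the window, 7.33 kb from Junb (chr8:84969518-84969643, pileup 19, fold enrichment 3.13), was stimulated only. Its summit lay inside Rnaseh2a, which encodes an RNase H2 subunit, and 0.039 kb from the annotated start of Prdx2.

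**Figure D2:**
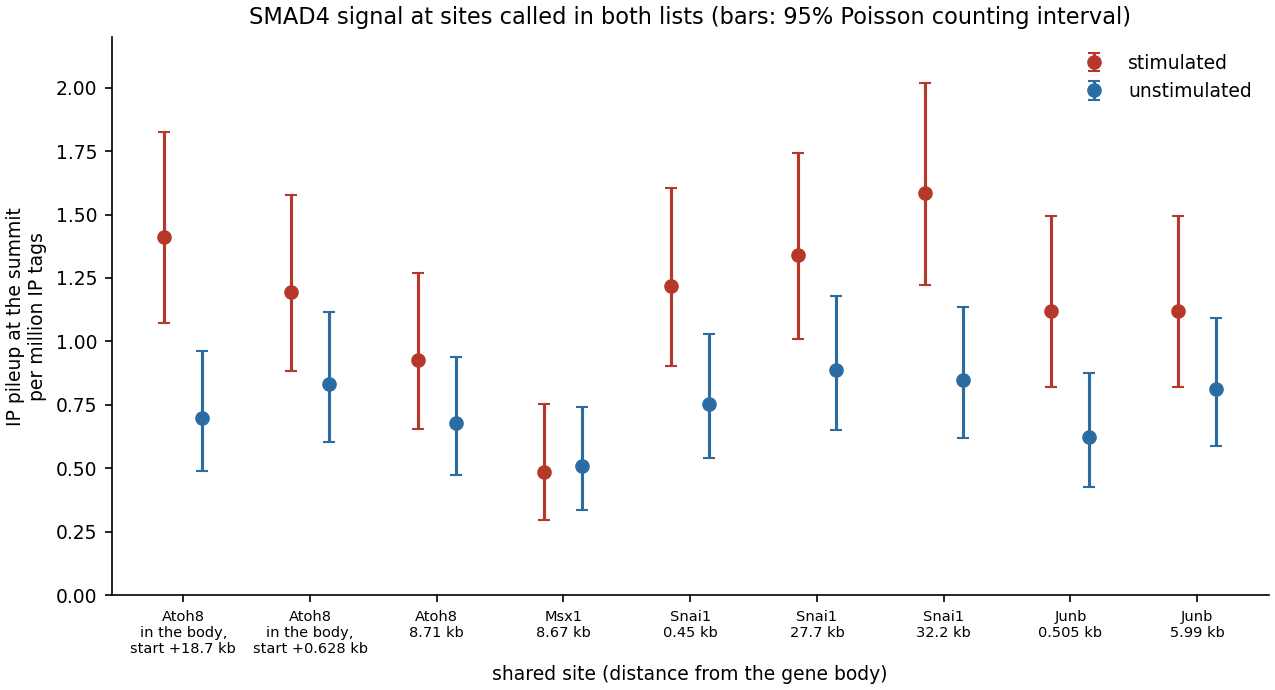
SMAD4 signal at the 9 shared sites. The horizontal axis names the site by gene and distance from the gene body (for the sites inside Atoh8, from the transcription start), and the vertical axis is the IP pileup at the summit per 1000000 IP tags. Points are single pooled values, stimulated left of unstimulated, and bars are 95% Poisson counting intervals. At 8 sites the stimulated point is the higher one. At the Msx1 site (0.487 stimulated, 0.51 unstimulated) it is not, and it is also the lowest stimulated value.

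Over the 9 shared sites the median ratio of stimulated to unstimulated normalised pileup was 1.51 (range 0.956 at Msx1 to 2.02 inside Atoh8). Across all 1078 shared pairs the median was 1.47, with an interquartile range of 1.29 to 1.68. The counting interval lay above 1 at 5 of the 9 sites, all 3 of Snai1, 1 of 3 at Atoh8 and 1 of 2 at Junb. Of all shared pairs 36.6% had such an interval, and for none did it lie below 1. Divided by the median of all pairs, the median ratio of the 9 sites was 1.02, close to that of shared sites in general. Measured by the authors' fold enrichment the median ratio was 1.26, against 1.40 over all pairs.

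The local background per tag at these 9 sites was 1.29 times as high in stimulated as in unstimulated cells in the median (range 0.833 to 1.47), against 1.0 over all pairs (interquartile range 0.821 to 1.29). With the local background subtracted from each pileup the median ratio was 1.69. Leaving out the Msx1 site gave 1.56, as did keeping the 8 sites nearest to a gene of the set.

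**Figure D3:**
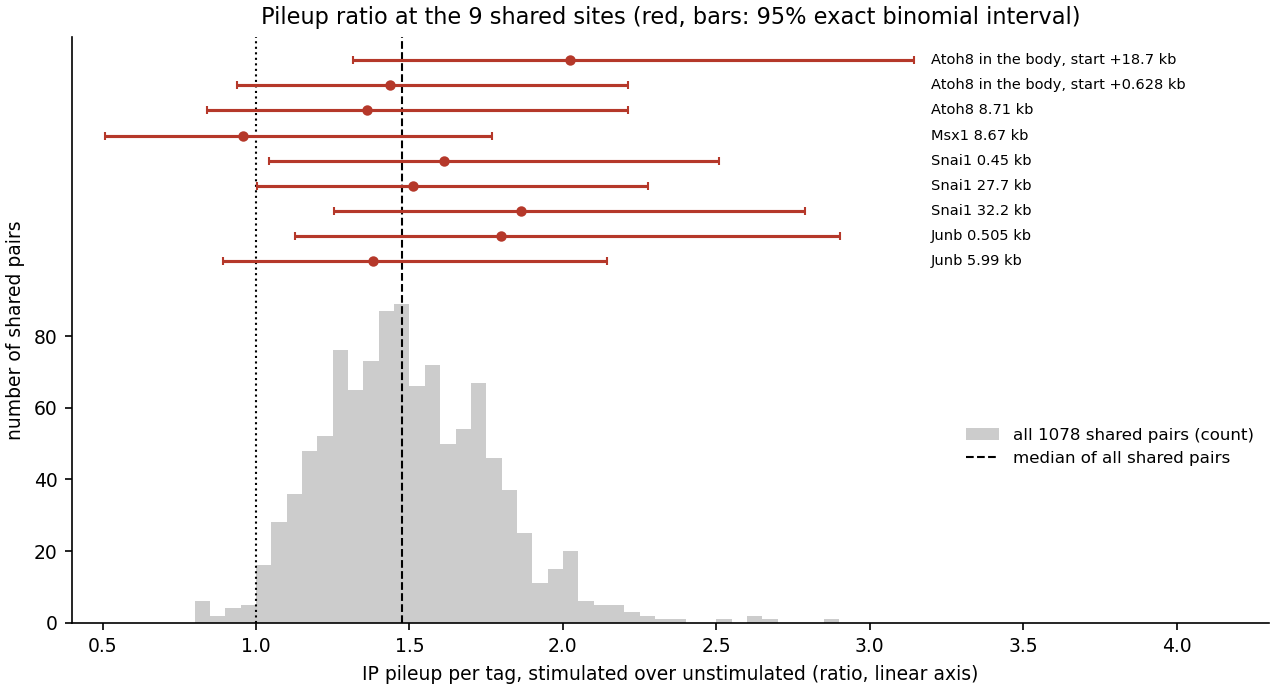
Ratio of stimulated to unstimulated pileup per tag. The horizontal axis is the ratio on a linear scale, the grey bars count all 1078 shared pairs, the dashed line is their median (1.47) and the dotted line is at 1. Red points with bars are the 9 shared sites around Atoh8, Msx1, Snai1 and Junb with 95% exact binomial intervals. The sites spread around the median of all pairs, from 0.956 to 2.02.

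All 9 unstimulated peaks around the 6 genes overlapped a stimulated peak, as did all but 3.98% of the unstimulated list. In the other direction, 9 of 18 stimulated peaks had no unstimulated overlap (50%, exact binomial interval 26.0 to 74.0), against 75.0% of all stimulated peaks. Atoh8 and Junb had 3 each, Snai1 2 and Msx1 1. Among the peaks nearest to a gene of the set it was 6 of 14. That share of 42.9% stood near the 39.4% found over the 1571 stimulated peaks whose nearest gene also had an unstimulated one. By medians, the 9 stimulated-only peaks were 140 bp wide with 3.60-fold enrichment, and the 9 shared ones 342 bp wide with 5.82-fold. Over the whole list the corresponding medians were 180 bp and 4.29-fold for stimulated-only peaks, and 320 bp and 5.80-fold for shared ones.

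A missing call does not show that SMAD4 was absent, since the unstimulated signal at these positions is not part of the list. The pileup needed for a call there was estimated from the lowest −log10 p in the unstimulated list (6.03), taking the local background per tag to be that of the stimulated peak. All 9 stimulated-only peaks were higher per tag than that pileup, as were 100% of the 3245 in the list, which follows from the greater unstimulated depth. The lower counting limit was also above it at 5 of 9 peaks, where 41.9% of all stimulated-only peaks reached this. The largest margins were 2.40 times at the Junb peak 2.43 kb upstream and 2.08 times at the peak near St3gal5. Next came 1.72 times at the Junb promoter, with a normalised pileup of 0.78 in stimulated cells and 0.453 needed for a call in unstimulated cells. The Atoh8 peak 17.1 kb past the 3′ end had 1.63 and the Snai1 peak nearest to Ube2v1 had 1.45. Their lower limits passed only narrowly, with 0.375 against 0.359 needed at Atoh8 and 0.635 against 0.623 at Snai1. The needed pileup carries no counting error. It takes equal background per tag, whereas that ratio ran from 0.833 to 1.47 at the shared sites. The remaining 4, at Atoh8 (14.4 kb), Msx1, Snai1 (27.3 kb) and inside Rnaseh2a, were 1.07 to 1.38 times the needed pileup, so that a somewhat lower unstimulated signal could not be told from an equal one at this depth.

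**Figure D4:**
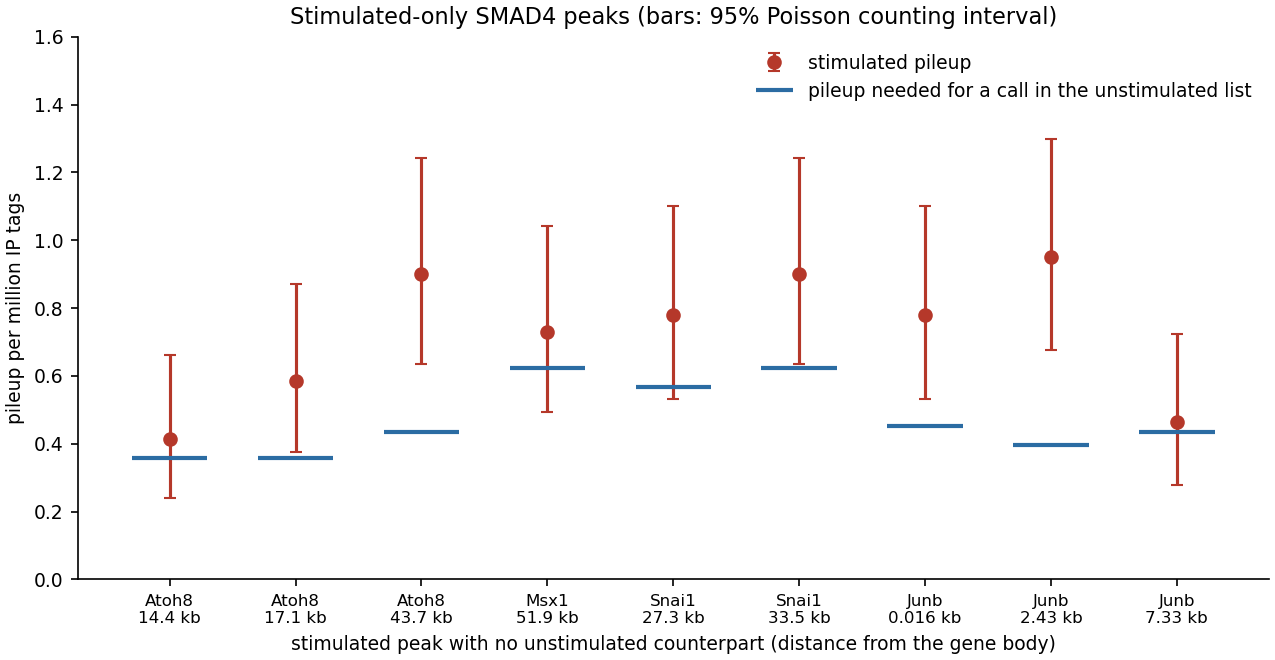
Stimulated peaks without an unstimulated counterpart. The horizontal axis names the gene and the distance from its body, and the vertical axis is the pileup per 1000000 IP tags. Red points are the stimulated pileups with 95% Poisson counting intervals, and blue lines the pileup that a call in the unstimulated list would have needed at the same local background per tag. At 5 of the 9 peaks the whole interval lies above the line, though only narrowly at Atoh8 (17.1 kb) and Snai1 (33.5 kb). The widest margin (2.40 times) is at the Junb peak 2.43 kb upstream.

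Other transcription factor genes known to respond to BMP or TGF-beta were counted for comparison. This list was chosen with earlier results of these data known, so its counts are a description. Of 30 such genes, 19 were nearest to a stimulated and 9 to an unstimulated peak within 100 kb (12.2% and 3.79% of all genes), with a median of 1 stimulated peak per gene against 0 over all genes. Id1, Id2, Id3, Id4, Hes1, Klf10, Zeb1, Atf3 and Prdm1 had both kinds. Dlx3, Runx2, Gata2, Gata3, Tgif1, Zeb2, Fosb, Fosl2, Bhlhe40 and Tbx3 had a stimulated one alone. The highest stimulated fold enrichments were 21.0 at Id4, 12.6 at Id2 and 12.5 at Id3, inhibitors of basic helix-loop-helix factors, against 8.43, at Atoh8, as the highest among peaks nearest to 1 of the 6 genes. The mesenchymal transition factor Zeb1 had 1 peak in each list, Zeb2 had 1 stimulated and 0 unstimulated peaks, and Twist1 had none.

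Among 8 paralogs of the 6 genes, Jun alone was nearest to a peak, with 5 stimulated and 1 unstimulated peaks. Its strongest stimulated peak lay 31.9 kb from the gene body with a fold enrichment of 4.25 (chr4:95083903-95084251). Jund, the third Jun family member, had 4 stimulated and 2 unstimulated peaks within 100 kb, all nearest to other genes. Atoh7, Msx3 and Scrt1 had 1 stimulated peak each in their windows and Snai3 had 2, with other genes nearer and no unstimulated peak. Atoh1 and Scrt2 had none.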

How the data were processed

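SMAD4 IP and input DNA of MS1 cells were sequenced in 8 samples. Per the file headers, the authors called peaks with MACS2 2.1.0.20140616 on merged libraries, with a q cutoff of 0.01 and 1 tag kept per position. The headers give a fragment length of 100 bp, below the tag sizes of 140 (stimulated) and 146 (unstimulated). Per the submitters' processing notes the build is mm10 and HOMER was also used. No aligner is named in the sources used here. The deposited pileup is a coverage signal, not scaled to depth. Fold enrichment was deposited by the authors as a ratio over local background. The authors' −log10 p and q values set IP against input. Per the file headers the band width differed (200 stimulated, 300 unstimulated).

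Summits were assigned to RefSeq protein-coding genes (GRCm38.p6) by distance to the gene body. Peaks were shared at 1 bp of overlap or more, and the closest summits were paired, each peak once. Pileups were divided by 41044888 stimulated or 52971023 unstimulated IP tags, and ratios have exact binomial (Clopper-Pearson) intervals. Local background was back-calculated from those 2 columns (pileup, fold enrichment). A Poisson tail on it matched the deposited p-values to within 0.000987% on the −log10 scale. Assignment, pairing and intervals were tested on simulated data (Python 3.11.15, scipy 1.17.1). Genes named are the 6, those nearest to their peaks, and lists of paralogs and of other induced transcription factors. Members and lists were chosen with earlier results of these data known. The unstimulated call estimate was chosen after the peaks were seen.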

Additional observations from a re-analysis of the deposited data

How the results depend on the processing

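Of 34 alternatives run, 25 left a count within 1.5 times its main value or the median ratio within a counting interval. The median has no interval of its own, so that of the ratio of summed pileups was used (1.57, 1.36 to 1.81). A −log10 q of at least 10 gave 10 stimulated and 4 unstimulated peaks within 100 kb, and 8 and 3 with a gene of the set as nearest. Within 100 kb at this cutoff, Atoh8 had 4 stimulated and 3 unstimulated peaks and Junb 3 and 1. Snai1 had 3 and 0, and Msx1 had 0 and 0. The whole lists fell to 1549 and 371 peaks. The stimulated list shortened to equal length gave 9 within 100 kb and 7 as nearest. Stimulated-only peaks whose lower counting limit passed the needed pileup were 5, an alternative chosen after seeing the data. These settings keep fewer peaks by construction. The median ratio at shared sites was 1.02 after division by the median of all pairs and 1.26 by fold enrichment. Windows of 25 and 50 kb, other overlap rules, leaving out predicted genes and distance to the nearer gene end changed no count by over 1.5 times. In the stimulated list the 25 kb window reached that limit, with 12 peaks in place of 18. Unstimulated peaks were then 7 in place of 9. Rescaled, background-subtracted or taken from fold enrichment, 27 single-site ratios changed and 0 left their counting interval. These intervals are wide, such as 1.32 to 3.14 at the Atoh8 site 18.7 kb after the start, so remaining inside them says little about robustness. Pairing the tallest overlapping peak gave the same ratios. No paired analysis was possible because the replicates were merged before peaks were called, and for the same reason no library could be left out. Summit pileups of 17 to 65 tags limit the precision of each ratio.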
